A study of Homo sapiens with 6 samples.

Results

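DKK1 encodes Dickkopf-1, a secreted inhibitor of Wnt signalling, and it was followed here in A549, an established line from a human lung adenocarcinoma, grown in 2D with and without LA717. LA717 is an agar of low molecular weight with which cells stay dispersed in the medium. DKK1 was picked because its signal on these arrays is high and because the study ranked it low in spheroids. That ranking set spheroids grown with LA717 against 2D culture. The level of DKK1 is therefore described and not tested. Whether these control arrays served in that ranking is not stated. It was found by its symbol in the platform annotation, which gave 1 probe set and 1 gene of 14884. Both groups held the same line, kept for 7 days on attachment plates in medium with serum. The medium of one group contained LA717 at 0.03% (w/v), and that of the other, the control, Milli-Q water. There were 3 arrays of each. One label of the LA717 arrays names low-attachment plates, while their titles, descriptions and treatment protocol name attachment plates. The labels do not say that the 3 collections of a group were separate cultures. The study calls its array data on 2D and 3D culture independent experiments and does not mention the LA717 group of 2D culture there, so p-values cover the spread between these samples, which may in part be technical.

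Wnt ligands bind Frizzled receptors together with LRP5 or LRP6, which stabilises beta-catenin and switches on genes through TCF and LEF factors. DKK1 occupies LRP5 and LRP6 and, with the Kremen receptors, takes them out of use. It is itself a target of beta-catenin in many cells, which makes it a feedback inhibitor, and it also binds CKAP4 at the cell surface. Many lung cancers secrete it.

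The arrays measured 53617 probe sets as log2 intensities, and 16098 of these carry the name of 1 gene. Array medians lay between 3.19 and 3.23 and pairs of arrays correlated across probe sets with r between 0.9899 and 0.9913. Precision is limited by the number of arrays. Of the 13 genes listed as markers of A549 and epithelial cells 7 were measured, and all 7 reached 4.62 in the mean, the median of probe sets that name a gene. Genes under it are called dim here. KRT18, a keratin of simple epithelia, stood at 11.13 in control and 11.05 with LA717. A second, less bright probe set of KRT18 stood at 6.56 and 6.44. Its groups did not overlap, as in 6.51% of named probe sets with LA717 lower. Of the 8 alveolar type II markers measured 1 reached that median, the surfactant gene SFTPD at 4.76 and 4.89 in the same order.

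DKK1 gave a strong signal on every array. In control the log2 intensities were 10.27, 10.33 and 10.10 for replicates 1, 2 and 3. With LA717 they were 10.01, 10.09 and 9.78. All 3 LA717 arrays lay below all 3 control arrays, but control replicate 3 exceeded LA717 replicate 2 by only 0.0092, far less than the range within either group (0.227 in control and 0.31 with LA717). Replicate 3 was the lowest array of each group. On a linear scale the intensities ran from 1099 to 1286 in control and from 881 to 1092 with LA717. The probe set ranked 827th by mean intensity over the 53617 probe sets and 168th over those naming a gene, and its rank on single arrays among the latter lay between 132 and 228. Probe sets differ in how well they bind, so this locates the signal within the array and does not order transcripts.

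**Figure D1:**
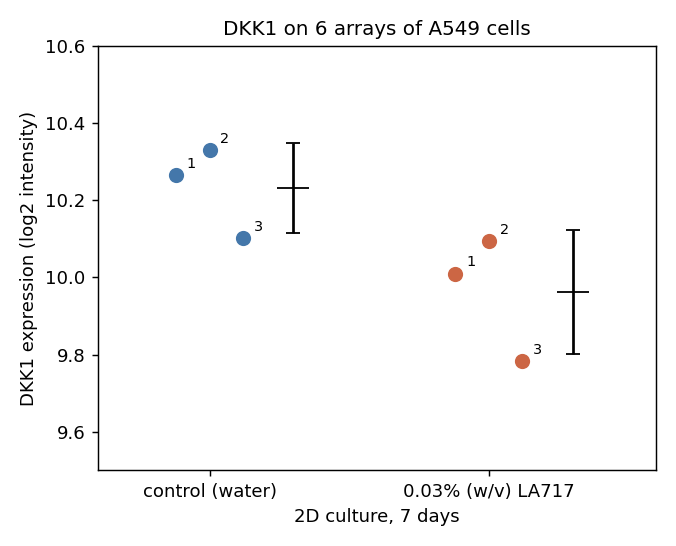
DKK1 expression (log2 intensity) on each array, by group, with the replicate number beside each point and the group mean ± SD (n = 3) at the right of the points. The control arrays sit between 10.10 and 10.33 and the LA717 arrays between 9.78 and 10.09, with almost no gap between control replicate 3 and LA717 replicate 2.

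The comparison of both groups asks whether the agar alters transcription in cells that stay attached. The mean log2 intensity of DKK1 was 10.23 ± 0.12 in control and 9.96 ± 0.16 with LA717 (SD, n = 3). The log2 difference, LA717 minus control, was −0.27 (SE 0.115), a 1.21-fold lower intensity or 17.1% less. It did not pass adjustment over all probe sets (limma adjusted p = 0.92, unadjusted p = 0.0495). The exact two-sided permutation test of DKK1 alone gave p = 0.1, the smallest that 3 arrays against 3 allow. The 95% interval ran from −0.54 to −0.001, so a 2-fold difference in either direction lay outside it. By limma, 0% of the 53617 probe sets were called at an adjusted p under 0.05. At an unadjusted p under 0.05, as for DKK1, there were 2845 (5.31%), and 2.59% were in addition lower with LA717. Over all probe sets 49.9% had a difference below 0. Groups that did not overlap, with LA717 lower, occurred in 5.73% of all probe sets and in 6.51% (1048) of those naming a gene, and with LA717 higher in 5.35% and 4.84%. In RNA of a whole culture, fewer cells with DKK1 and less DKK1 RNA per cell cannot be told apart.

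For a probe set this bright, DKK1 varied much between arrays. Its within-group SD was 0.141, against a median of 0.0583 over the 180 named probe sets with a mean of at least 10, of which 14 had a larger one. Among these 180 the difference of DKK1 was second from the low end, after FGA, a fibrinogen chain gene, at −0.28. Over 542 named probe sets with a mean of at least 9 there were 4 lower differences, those of FGA, FGB (−0.36), the placental hormone gene INSL4 (−0.28) and the transcription factor gene ETS2 (−0.49, limma adjusted p = 0.794). Over all named probe sets regardless of intensity 505 of 16098 (3.14%) were lower. Both intensity limits, and the genes that they bring up, were chosen after the values were seen. No DKK1 difference by any setting tried reached 2-fold. In the fit as reported, 0 of the 16098 named probe sets and 87 of all 53617 (0.162%) did.

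**Figure D2:**
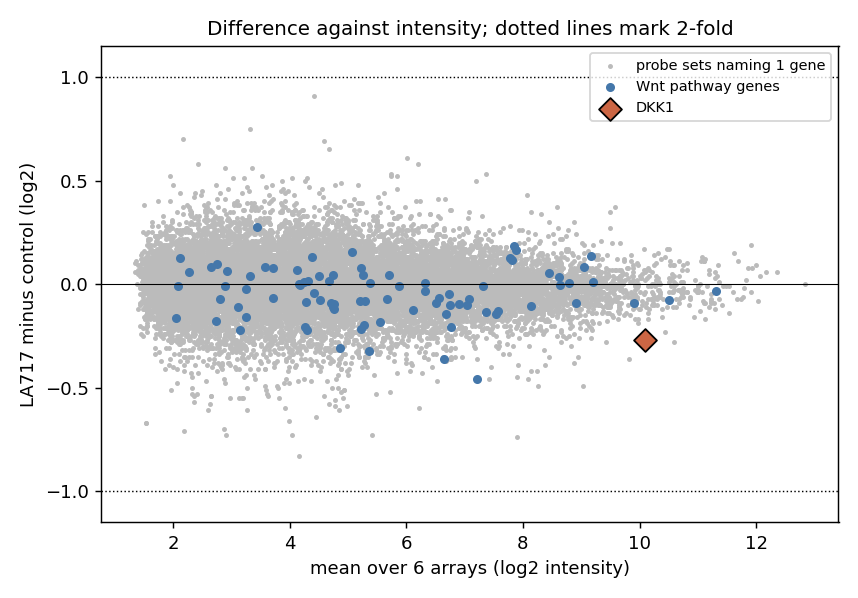
Difference between groups (LA717 minus control, log2) against mean intensity over 6 arrays (log2) for the 16098 probe sets naming a gene (grey), with Wnt pathway genes in blue and DKK1 as a red diamond. DKK1, at a mean of 10.1 and a difference of −0.27, lies at the lower edge of the narrow cloud of bright probe sets, inside the dotted 2-fold lines.

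**Figure D3:**
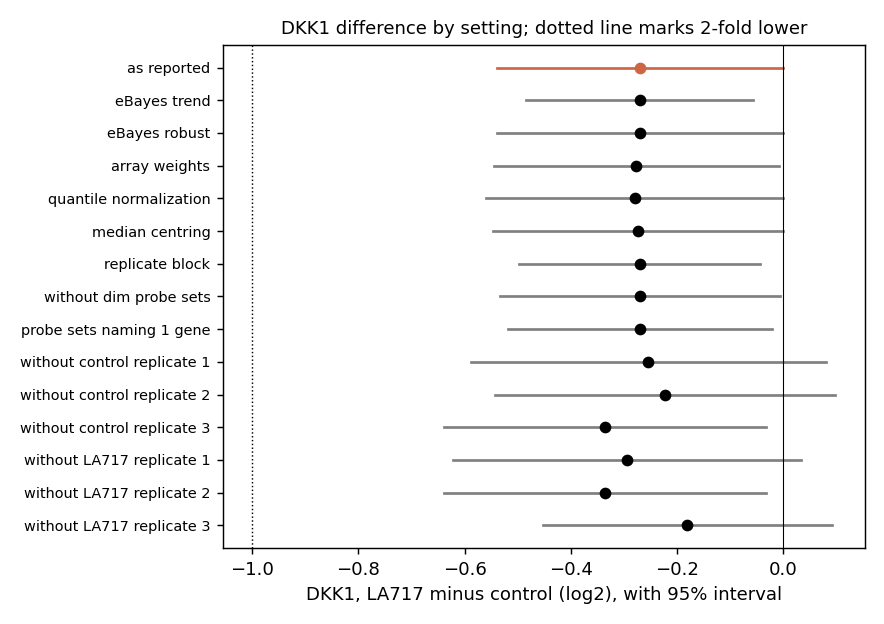
DKK1 difference (LA717 minus control, log2) with its limma 95% interval as reported and under each alternative limma fit. Every point lies below 0, between −0.181 and −0.336, and the interval crosses 0 in 4 of the 6 fits that leave out an array.

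The bases before the DKK1 start are shown because the control of DKK1 by TCF and LEF factors is read through short motifs there. The run is from RefSeq (GRCh38.p14), on the + strand, with matches to the motifs searched in capitals.
DKK1 upstream, chr10:52314031-52314280: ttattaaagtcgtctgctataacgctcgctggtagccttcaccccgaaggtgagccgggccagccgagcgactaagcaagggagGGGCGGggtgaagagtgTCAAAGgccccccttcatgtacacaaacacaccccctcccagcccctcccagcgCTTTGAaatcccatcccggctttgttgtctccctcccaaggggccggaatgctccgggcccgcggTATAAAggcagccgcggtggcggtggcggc
The motifs named next were searched on both strands, and no match overlapped another. The TATA box letters TATAAA began 30 bases before the start, and 10.7% of 35116 promoters held them in the same window of 250 bases. The TCF and LEF core TCAAAG matched at 149 bases before the start and, as CTTTGA, at 95, and 11.2% of promoters held at least 1 match. The SP1 core GGGCGG matched once (42.6% of promoters). AP-1 letters TGANTCA had 0 matches in this window (6.57% of promoters). A match describes letters only.

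Of 9 transcription factor genes listed as possible regulators of DKK1 4 were measured, and 0 of them passed the test. JUN, a subunit of AP-1, was at 8.59, 8.77 and 8.60 in control and at 8.86, 8.76 and 8.83 with LA717, groups that overlapped (difference 0.16, limma adjusted p = 0.92). LEF1 was dim at 2.12 in control and 1.96 with LA717. The homeobox genes MSX1 and MSX2 gave differences of −0.12 and −0.087. The signs of LEF1, MSX1 and MSX2 each turned in at least 1 fit with an array left out. The other 5 were not analysed here.

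Around DKK1 on chromosome 10, 2 of 6 listed neighbours were measured. PRKG1-AS1 is a long non-coding RNA gene of the opposite strand and the next gene before DKK1 in RefSeq. It was at 3.93, 4.05 and 4.04 in control and at 3.94, 4.57 and 4.24 with LA717. It was dim and its groups overlapped, and its difference of 0.24 (limma adjusted p = 0.92) was 0.082 without LA717 replicate 2 and 0.396 without LA717 replicate 1. The cadherin gene PCDH15 was also dim, at 2.27 and 2.23 in control and LA717. The other 4, among them LNCAROD, a long non-coding RNA gene named as an activating regulator of DKK1, were not analysed here.

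Among the 4 other Dickkopf genes, DKK3 resembled DKK1 in the direction and size of its difference. It did not in level, with a mean of 4.86, little above the 4.62 under which genes are called dim. Nor did the order of its arrays match, as replicate 2 was its lowest control array. DKK3, a divergent family member that is not an established LRP5 or LRP6 inhibitor, was at 5.12, 4.89 and 5.03 in control and at 4.59, 4.81 and 4.71 with LA717. Its groups did not overlap, and its difference of −0.31 (SE 0.104) did not pass either (limma adjusted p = 0.92). DKK2 and DKK4, which also bind LRP5 and LRP6, were dim, with means of 2.12 and 2.89. Their differences were 0.13 and −0.0084, and the control arrays of DKK4 ranged from 2.50 to 3.43. DKKL1, a relative expressed mainly in testis, gave 0.044, with groups that overlapped. Leaving out 1 array turned the sign of DKK4 and of DKKL1, and without control replicate 1 the median of the family moved from −0.0084 to −0.20.

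The receptors that DKK1 binds were all 5 measured above the median of named probe sets, and 0 passed the test. LRP5 was at 9.22, 9.10 and 8.97 in control and at 9.39, 9.18 and 9.13 with LA717 (difference 0.14, SE 0.112). LRP6 was at 8.72, 8.64 and 8.54 in control and at 8.65, 8.68 and 8.56 with LA717, with a 95% interval of the difference from −0.218 to 0.207. The Kremen genes gave −0.073 for KREMEN1 and 0.078 for KREMEN2, and CKAP4 gave −0.081. The signs of LRP6 and KREMEN2 turned with 1 array left out. All 5 had groups that overlapped. All 5 intervals excluded a 2-fold difference, as did those of 14826 of all 14884 genes.

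Of the inhibitors that act beside DKK1, 0 passed. Of 11 other secreted Wnt antagonists measured 9 had a negative difference (52.1% of all genes did), with a median of −0.071 (−0.0061 over all genes) that was −0.043 without control replicate 2, and the groups overlapped in all 11, of which 8 were dim. IGFBP4, a growth factor binding protein that also acts on LRP6 and Frizzled, gave −0.035, and its sign turned when LA717 replicate 3 was left out. SFRP1, a secreted decoy that binds Wnt ligands, gave −0.090, and SFRP4 gave −0.080. Of 9 membrane inhibitors 6 were negative. The one with the greatest difference in size was RNF43, a ubiquitin ligase that removes Frizzled receptors from the surface, at 7.59, 7.40 and 7.30 in control and at 7.21, 6.97 and 6.75 with LA717. Its difference of −0.46 (SE 0.141, limma adjusted p = 0.92) was larger than that of DKK1. Its partner ZNRF3 gave −0.099 and TPBG gave −0.048.

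Ligand and receptor genes were covered unevenly. WNT2 was the only one of 19 Wnt ligand genes measured, with a dim mean of 2.75. All 4 measured genes of Wnt secretion were negative. The cargo receptor genes TMED10, TMED5 and TMED2 gave −0.125, −0.11 and −0.079, and WLS, the carrier of Wnt ligands, gave −0.065. A second probe set of TMED2 also gave −0.065, with groups that overlapped. Of 10 Frizzled genes 7 were negative with a median of −0.12, and 0 passed. The lowest among the 8 that were not dim were FZD8 (−0.36), FZD2 (−0.21), FZD7 (−0.18) and FZD3 (−0.14). FZD8, a receptor of the beta-catenin branch, was at 6.70, 6.74 and 7.05 in control and at 6.49, 6.31 and 6.61 with LA717. The groups did not overlap, with LA717 lower, in 4 of the 10 (6.66% of all genes). Of the R-spondin module, whose members raise Wnt signalling through LGR receptors, 5 of 7 were negative. LGR6 gave −0.22, RSPO3 −0.14, RSPO4 −0.11 and RSPO1 −0.093. Of 5 non-canonical receptors measured, ROR1 gave 0.13 and RYK −0.0090.

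Inside the cell, no component passed. Of 9 destruction complex genes measured 6 were negative, and the Dishevelled genes listed with them were not analysed here. APC, the scaffold that holds beta-catenin for degradation, was at 5.44, 5.59 and 5.52 in control and at 5.05, 5.27 and 5.27 with LA717, with no overlap and a difference of −0.32 (SE 0.100, limma adjusted p = 0.92). BTRC gave −0.13, AXIN2 −0.099 and GSK3A −0.091. Of 9 nuclear partners 3 were negative and 6 positive, with PYGO1 at −0.20, BCL9 at −0.13, BCL9L at 0.115 and PYGO2 at 0.046. A second probe set of BCL9L gave −0.13. The signs of AXIN2, RYK and PYGO2 turned with 1 array left out.

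The genes that beta-catenin switches on lay on both sides. Of 18 targets measured 10 were negative and 8 positive, with a median of −0.025 that had no stable sign. It was −0.071 without LA717 replicate 1, −0.056 without LA717 replicate 2, −0.0021 without LA717 replicate 3, 0.0011 without control replicate 1 and 0.012 without control replicate 3. RNF43 was on the low side. On the high side were MYC (0.18), the cyclin D1 gene CCND1 (0.16) and NKD2 (0.16), each with groups that did not overlap (4.86% of all genes in that direction). The dim growth factor gene FGF20, named after its values were seen, was the other such target, with 0.27. CCND1 was at 7.79, 7.80 and 7.81 in control and at 7.99, 7.92 and 7.98 with LA717. AXIN2, a target found in most tissues with Wnt activity, gave −0.099 with groups that overlapped. The limma adjusted p of the 18 ran from 0.9199 to 0.9976.

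**Figure D4:**
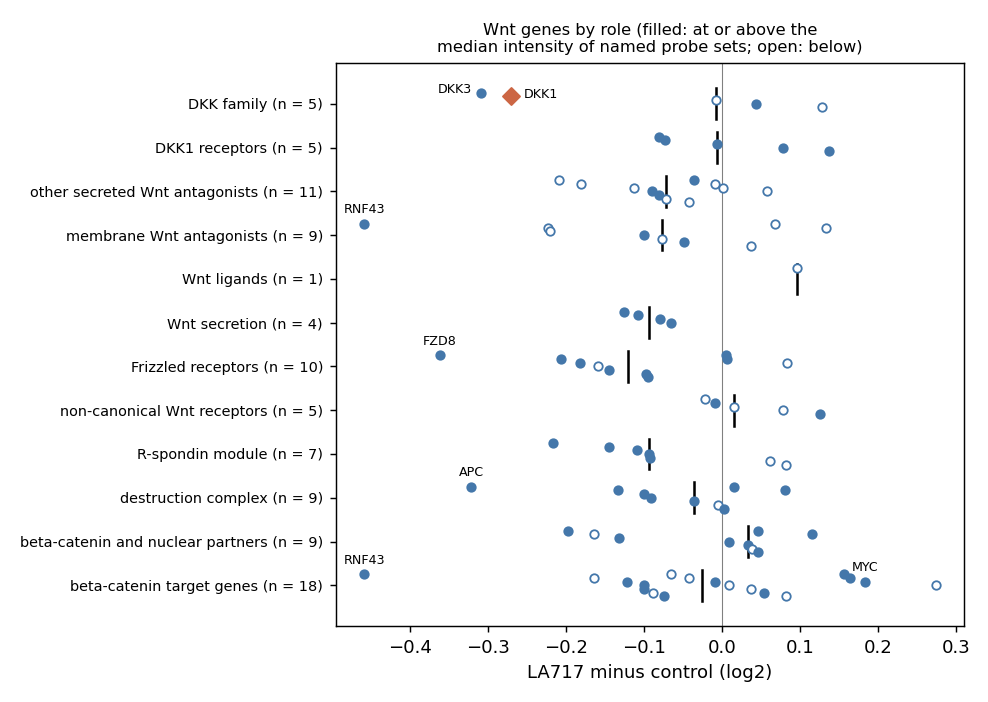
Difference between groups (LA717 minus control, log2) for each measured Wnt gene, in rows by role, with a black bar at the median of the row. Filled points reach the median intensity of named probe sets in the mean and open points lie below it. DKK1 (diamond) and DKK3 lie apart from the rest of their family, and the 18 target genes spread to both sides of 0.

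Over the 85 Wnt genes measured beside DKK1, of 130 listed, 52 were negative (61.2%, against 52.1% of all 14884 genes), with a median of −0.042 (−0.071 without control replicate 1). The groups did not overlap with LA717 lower in 10 of the 85 (11.8%, against 6.66% of all genes) and with LA717 higher in 5 (5.88%, against 4.86%). Of the 85, 0 passed by limma, and 5 had an unadjusted p under 0.05 (4.4% of all genes did). Genes listed as secreted antagonists of the BMP and TGF-beta family went both ways, though LTBP1 among them is not a plain inhibitor. GREM1 gave 0.40 and BMPER 0.15, FST gave −0.26 and LTBP1 −0.175, and 9 of 13 were negative.

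Within the 6 arrays, the genes whose pattern lay nearest to that of DKK1 were AGMO, ARFGAP3, MAP2, NBEA and PAQR5. Likeness was the root mean square difference between deviations from each gene's own mean over 6 arrays, among 7616 other genes at or above the median intensity of named probe sets. It was 0.0276 (log2) for AGMO, an ether lipid cleaving enzyme gene, and 0.048 to 0.0508 for the other 4, where the pattern of DKK1 itself had a root mean square of 0.177. AGMO was at 6.66, 6.77 and 6.57 in control and at 6.44, 6.49 and 6.23 with LA717. As in DKK1, replicate 2 was its highest array and replicate 3 its lowest in each group. The 5 genes were picked for this nearness, so a like order and differences close to that of DKK1 come with the choice. ARFGAP3, a regulator of Golgi transport, had a difference of −0.30, MAP2 −0.31, NBEA −0.21 and PAQR5 −0.26, and 0 of the 5 passed. The nearest Wnt gene was RSPO3, at rank 67 with 0.0886. Only 1 of the 5, AGMO, remained among the nearest 5 when deviations were taken from group means.

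**Figure D5:**
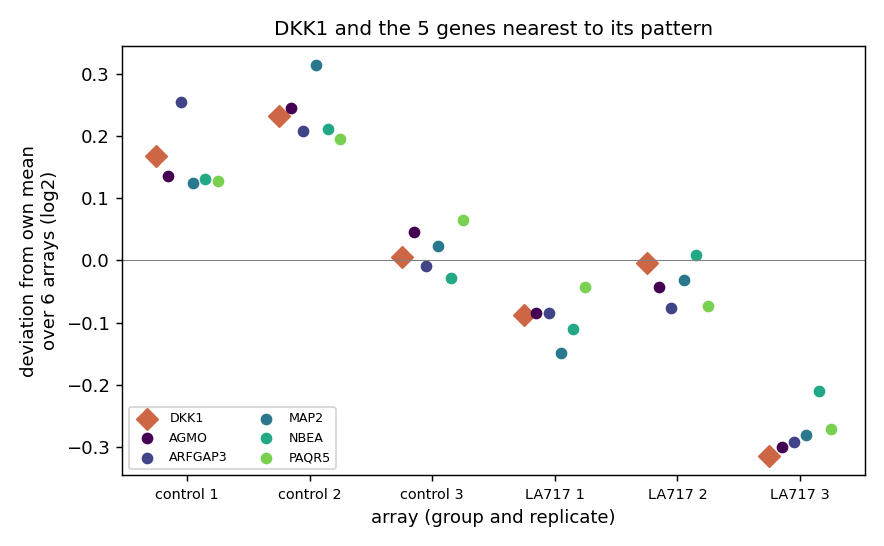
Deviation from the gene's own mean over 6 arrays (log2) on each array, for DKK1 (diamonds) and the 5 genes nearest to it. DKK1 is highest on control replicate 2 (0.232) and lowest on LA717 replicate 3 (−0.314), and AGMO lies closest to it, with 0.245 and −0.299 on the same arrays.

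Reference and marker genes are set beside the DKK1 result. GAPDH, at a mean of 6.22, gave 0.077, and the 6 measured housekeeping genes had a median of 0.052, 5 of them higher with LA717. DKK1 relative to GAPDH on the same array differed by −0.35 (exact two-sided permutation p = 0.1, the smallest possible). The GAPDH difference is part of this value. The 3 measured fibroblast markers had a mean log2 level per array of 4.197 to 4.465 in control and 4.082 to 4.38 with LA717. DCN was dim, with a mean of 1.68, while LUM and THY1 were not, with means of 5.99 and 5.22. Their differences were −0.045 for DCN, −0.38 for LUM and 0.11 for THY1, and the groups of each overlapped. The 5 endothelial markers ranged from 3.132 to 3.165 and from 3.05 to 3.177. The mean of the 3 leukocyte markers ranged from 4.977 to 5.089 and from 4.746 to 4.956, without overlap. By gene, only LYZ (−0.34, dim at 3.42) had groups apart, as 6.66% of all genes had with LA717 lower. CD14 (−0.094, mean 7.82, not dim) and CSF1R (−0.016, dim at 3.64) overlapped, as did a second probe set of LYZ (−0.11). The part of these genes in the DKK1 result was not tested.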

How the data were processed

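RNA of A549 cultures was hybridised to GeneChip Human Gene 2.0 ST arrays, 3 per group. The labelling kit given in the labels belongs to another type of array, which was not settled. The deposited table holds 1 log2 value per probe set and array, made by the authors with Affymetrix Expression Console. For the version, the summarisation method and the genome build, nothing is given in the sources used here. The log2 scale was read from the range of the values, which were used without further normalization or pseudocount. Genes came from the platform annotation, and a gene with several probe sets was represented by the brightest. Sample titles gave the groups and the replicate numbers.

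LA717 minus control was fitted over all 53617 probe sets with lmFit and eBayes of limma 3.58.1 (R 4.3.3), two-sided, with Benjamini-Hochberg adjustment and a threshold of 0.05, after the script had been tested on simulated data. The study's methods name a 2-fold rule and no test for arrays. DKK1 and the gene lists were chosen with earlier results of these data known, so lists are given as counts and medians. Genes named are DKK1, its family, receptors, neighbours and listed regulators, up to 4 bright genes with the greatest difference in size per other list, the brightest and dimmest marker and reference genes, GAPDH, and the 5 nearest in pattern. Others were named after their values were seen. Alternatives were other variance and weight settings, scalings, filters, reference genes and left-out arrays. Figures were drawn with matplotlib 3.10.9.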

Additional observations from a re-analysis of the deposited data

How the results depend on the processing

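DKK1 stayed below 0 in all 17 alternatives tried, and in the 14 with a limma fit its adjusted p lay between 0.815 and 0.988. With 1 array left out its difference ran from −0.336 without LA717 replicate 2 to −0.181 without LA717 replicate 3. As its groups do not overlap, leaving out 1 array could not turn the sign. The count of probe sets called by limma was 0 under each of 14 alternatives. Of the 5 genes nearest in pattern, 1 was kept with deviations from group means, 2 without the filter on intensity, and 1 to 3 with each array left out. Deviations from the group means of same-numbered arrays correlated at 0.024, 0.0149 and 0.0329 over all probe sets, too little to take the numbers as a pairing. Other combinations of numbers gave lower values still. Deviations from a group mean cancel over its arrays, so this follows on balance and adds no separate hint of a pairing. Any hint is from the data and not from the design. In a fit with the number as a replicate block, the DKK1 difference was −0.27 (limma adjusted p = 0.89) and 0 probe sets were called. Of 945 values of 68 other named genes under alternatives, 25 turned sign and 0 passed. Of 126 list medians, 7 moved by more than the spread of the list's mean between replicates. A limit of 9 in place of 10 for bright probe sets was chosen after seeing the data. The choice of probe set could not be varied, as DKK1 has 1. Signal over background was not given, which limits what dim genes can show.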
